A study of Mus musculus with 6 samples.

Results

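The 48 genes described here are the Wnt ligands, the frizzled receptors and the secreted modulators of Wnt signalling, with a few of its ligases and feedback genes, among the 37060 genes of the deposited table. They were taken by symbol: every Wnt, Fzd, Sfrp, Dkk and Rspo gene with a number, plus Wif1, Axin2, Lef1, Tcf7, Nkd1, Rnf43 and Znrf3. RNA was sequenced from whole uteri of mice on gestation day 5, from 3 SRC-2d/d mutant mice and 3 SRC-2f/f control mice, with 1 library from each of 6 different mice according to the design text. Ncoa2 encodes SRC-2, which steroid hormone receptors recruit to activate transcription, and the stated purpose of the series was to find the genes through which it acts in implantation. The labels name the genotype, the tissue and the day only. They do not state the Cre line behind the d allele, the age of the mice or whether embryos were in the tissue.

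Wnt ligands are secreted, lipid-modified proteins that bind frizzled receptors on the cell surface, together with the co-receptors Lrp5 and Lrp6 in the branch that stabilises beta-catenin. Stabilised beta-catenin acts in the nucleus with factors of the TCF/LEF family, whereas other Wnt ligands act through the planar polarity branch and the receptor Ror2. Secreted frizzled-related proteins and Wif1 bind the ligands, dickkopfs bind the co-receptors, and R-spondins protect frizzled receptors from the ligases Rnf43 and Znrf3. In the mouse uterus Wnt7a is a gene of the luminal epithelium required for gland formation, Wnt5a is made in the stroma, and Wnt4 takes part in the decidual response of the stroma.

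Between 129905950 and 195782326 reads were assigned to genes in the SRC-2d/d libraries, and between 138811835 and 163196592 in the SRC-2f/f libraries. The deposited values were reads divided by 1 size factor per library and are called normalized counts. At this depth 3 reads, the limit that a count of 0 allows, correspond to a normalized count of 2.48 to 3.41, which covers counting error only. Ncoa2 had 7620, 6667 and 7409 normalized counts in SRC-2d/d uteri, against 13208, 13090 and 14495 in SRC-2f/f uteri. It fell, with a log2 difference of -0.91 (SE 0.20, adjusted p = 0.00953), and an exact two-sided permutation over the 6 mice had p = 0.1, which is as low as this number of mice can go. That call was lost without SRC-2f/f mouse 2 (-0.94, adjusted p = 0.0583) and without SRC-2f/f mouse 3 (-0.86, adjusted p = 0.0585).

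Cell type markers moved with genotype. Of 9 luminal epithelial markers 9 rose, and their summed normalized count was 389881 to 692236 in SRC-2d/d uteri, against 94675 to 103198 in SRC-2f/f uteri. Of 7 glandular markers 4 fell and 1 (Sox9) rose, the sum being 11928 to 18839 in SRC-2d/d uteri and 122498 to 314057 in SRC-2f/f uteri. Foxa2 and Cxcl15 were not called. Prss28 and Prss29, with means of 71172 and 127464 in SRC-2f/f uteri, held most of the SRC-2f/f glandular sum. Decidual markers fell in 4 of 6 cases and rose in 1 (Alpl), with sums of 28093 to 45629 in SRC-2d/d uteri and 222100 to 274238 in SRC-2f/f uteri. Cebpb was not called, and Igfbp3, with a mean of 203780 in SRC-2f/f uteri, held most of the SRC-2f/f decidual sum. Stromal markers fell in 4 of 9 cases, but their sums overlapped, with 886098 to 1702580 in SRC-2d/d uteri and 1612190 to 2236460 in SRC-2f/f uteri. Col1a1 and Col3a1, neither of them called, held most of the stromal sum in each library. Endothelial markers fell in 4 of 6 cases, with sums of 33507 to 68689 in SRC-2d/d uteri and 85144 to 140153 in SRC-2f/f uteri. The stromal Hox genes Hoxa10 and Hoxa11 and the smooth muscle gene Myh11 had at least 8500 normalized counts in each library, as a uterine label implies. Of 6 myometrial markers 1 fell. Of the 20 macrophage, lymphocyte and NK cell, erythroid and adipocyte markers limma, edgeR and DESeq2 called 0, and 1 had an unadjusted p under 0.05. The early embryo markers Pou5f1, Nanog and Cdx2 did not pass 49.2 normalized counts in any library. Of the 6 embryo and trophoblast markers 2 rose, Elf5 and Krt7, and Gata3 was not called (-0.55, adjusted p = 0.419). Krt7 had at least 6651 normalized counts in each library, and which cells held these transcripts was not tested. In whole tissue, fewer cells of a type and less RNA per cell cannot be told apart, and the part of these marker shifts in the results that follow was not tested.

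**Figure D1:**
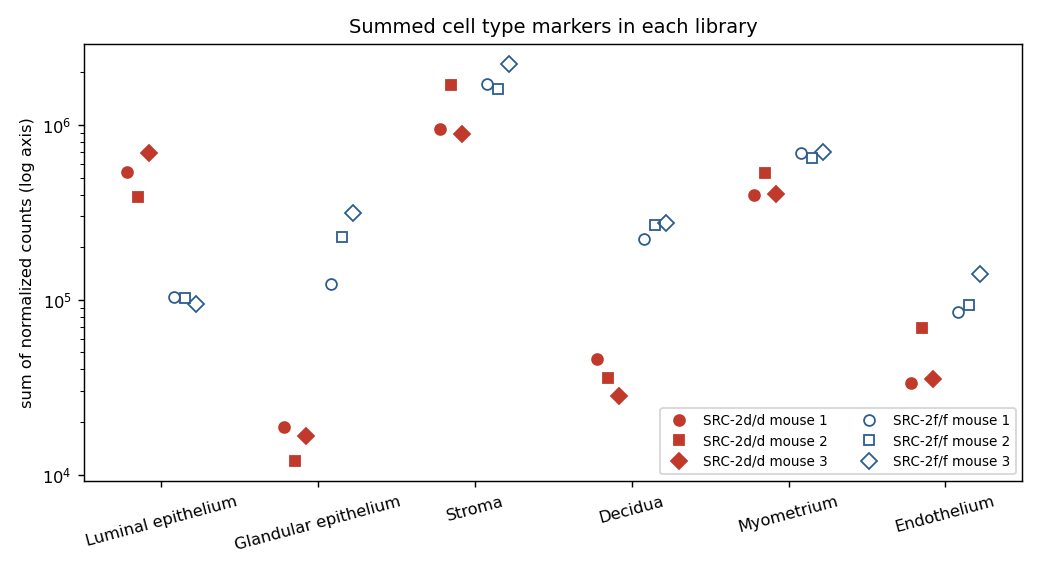
Summed normalized counts (vertical log axis) of 6 marker lists in each library, with SRC-2d/d mice as filled red symbols and SRC-2f/f mice as open blue symbols. The luminal epithelial sums lie higher in all 3 SRC-2d/d mice than in the SRC-2f/f mice, the glandular, decidual, myometrial and endothelial sums lie lower, and the stromal sums overlap because SRC-2d/d mouse 2 stands at 1702580. In SRC-2f/f mice Prss28 and Prss29 hold most of the glandular sum and Igfbp3 most of the decidual sum.

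Of the 48 genes, 16 (33.3%) fell and 4 (8.33%) rose in SRC-2d/d uteri, and 28 were not called. Calls are limma's at a Benjamini-Hochberg adjusted p under 0.05 over all 36154 genes tested, all 48 of which passed the filter. Of all tested genes 4.08% were called lower and 5.34% higher, 9.42% in all. Among the 34 genes of the group whose normalized count averaged 100 or more, 13 (38.2%) fell and 4 (11.8%) rose, beside 6.79% and 8.33% (15.1% in either direction) of all genes at that level. The median log2 difference was -0.76 over the 48 genes and -0.01 over all genes tested. The 3 SRC-2d/d values lay below the 3 SRC-2f/f values for 22 of the 48 genes and above them for 6, beside 12.1% and 13.4% of all tested genes. edgeR on the recovered reads called the same 4 and 16 genes, where it called 3.58% of all genes lower and 5.52% higher, 9.1% in all.

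By class, the fall was widest among the secreted frizzled-related proteins with Wif1, of which 5 of 5 fell. Frizzled receptors split, with 4 of 10 lower and 2 higher. Among the 19 ligands 4 fell and 1 rose. Of the 4 dickkopfs 1 fell, of the 6 R-spondins and ligases 1 rose, and of the 4 feedback and nuclear genes 2 fell. The count of lower genes was 10 without SRC-2f/f mouse 3, and that of higher genes was 1 without SRC-2f/f mouse 2 and 2 without SRC-2f/f mouse 3.

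**Figure D2:**
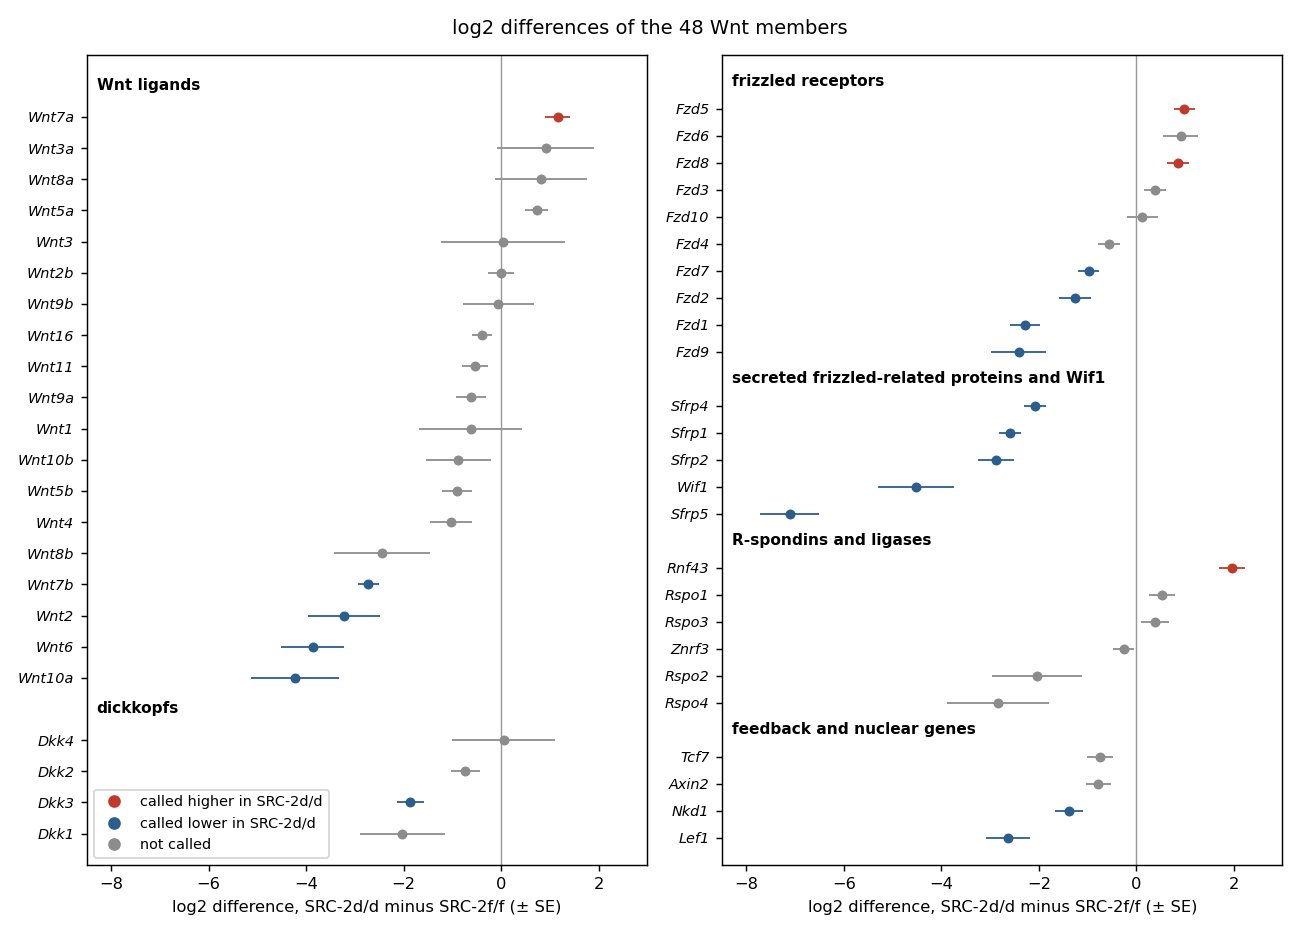
Log2 differences (SRC-2d/d minus SRC-2f/f, on the log2 scale of the normalized count plus 1, horizontal axis) of the 48 genes by class, with bars for the standard error. Red points were called higher, blue points lower and grey points not called; all 5 genes of the secreted frizzled-related class are blue, and Sfrp5 lies farthest left at -7.11.

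The stretches before the start sites of 5 of the called genes are shown because these genes cover both directions and 4 of the classes. They are RefSeq promoters of GRCm38.p6, 250 bases each, read 5′ to 3′ on the strand of the gene, with each CG pair in capitals. The table held a promoter for 33 of the 48 genes, and no source used here names the build behind the deposited counts. Wnt7a, which rose, lies on the minus strand at chr6:91411354-91411603, and Fzd5, which also rose, on the minus strand at chr1:64737751-64738000. Rnf43, the third riser shown, lies on the plus strand at chr11:87662837-87663086, which is the first of its 2 start sites in the table. Wnt6, which fell, lies on the plus strand at chr1:74771642-74771891, and Sfrp5, which fell most, on the minus strand at chr19:42202253-42202502.
Wnt7a: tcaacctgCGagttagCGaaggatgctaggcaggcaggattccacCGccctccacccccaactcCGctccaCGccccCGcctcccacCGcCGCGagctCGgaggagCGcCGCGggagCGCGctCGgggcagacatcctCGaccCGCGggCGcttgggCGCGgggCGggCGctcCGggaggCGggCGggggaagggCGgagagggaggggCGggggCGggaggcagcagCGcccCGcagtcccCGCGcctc
Fzd5: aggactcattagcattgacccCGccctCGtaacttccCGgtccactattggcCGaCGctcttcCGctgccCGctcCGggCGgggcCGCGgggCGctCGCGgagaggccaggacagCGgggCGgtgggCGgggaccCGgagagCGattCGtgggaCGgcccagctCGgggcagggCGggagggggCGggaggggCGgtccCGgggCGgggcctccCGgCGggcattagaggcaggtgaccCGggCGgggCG
Rnf43: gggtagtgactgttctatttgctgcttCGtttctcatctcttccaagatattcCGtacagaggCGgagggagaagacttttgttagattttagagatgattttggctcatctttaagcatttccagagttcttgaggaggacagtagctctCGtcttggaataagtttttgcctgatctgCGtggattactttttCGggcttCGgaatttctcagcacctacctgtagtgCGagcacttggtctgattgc
Wnt6: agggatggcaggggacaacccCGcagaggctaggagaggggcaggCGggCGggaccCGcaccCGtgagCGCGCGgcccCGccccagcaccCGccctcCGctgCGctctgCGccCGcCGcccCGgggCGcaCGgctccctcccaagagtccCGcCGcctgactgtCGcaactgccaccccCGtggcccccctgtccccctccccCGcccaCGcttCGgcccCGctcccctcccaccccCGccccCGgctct
Sfrp5: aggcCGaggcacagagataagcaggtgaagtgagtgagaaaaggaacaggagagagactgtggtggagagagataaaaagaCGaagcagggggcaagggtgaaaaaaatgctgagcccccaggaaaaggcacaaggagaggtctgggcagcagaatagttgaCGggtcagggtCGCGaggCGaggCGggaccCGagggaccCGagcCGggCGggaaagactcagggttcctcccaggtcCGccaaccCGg
The risers Wnt7a and Fzd5 held 34 and 32 CG pairs, whereas the riser Rnf43 held 8. The fallers Wnt6 and Sfrp5 held 28 and 13, so the CG content of the stretch did not follow the direction of change in these 5 genes. The TCF/LEF letters CTTTGAT or CTTTGAA, searched on both strands from 250 bases before to 50 after the start site, were in 3 of the 41 promoters of the group (those of Dkk1, Wnt11 and 1 of Wnt5b), against 8.65% of all 32851 promoters. The letters ACANNNTGT, the core of the palindromic element of the progesterone and glucocorticoid receptors, were in 2 of the 41 (Wnt1 and 1 of Wnt5b), against 6.85% of all promoters. None of these 4 genes was called, and no match says only that the letters are not in this window.

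Among the ligands, Wnt7b fell and Wnt7a rose. Wnt7b, known as a ligand of the uterine epithelium, had 5497, 4733 and 4000 normalized counts in SRC-2d/d uteri, against 32764, 32875 and 27764 in SRC-2f/f uteri. Each SRC-2d/d mouse lay far below each SRC-2f/f mouse, at 15.2% of the SRC-2f/f mean on average (log2 difference -2.72, SE 0.21, adjusted p = 2.37e-06), and the call held in all 20 alternatives. The luminal epithelial markers given above went the other way. Wnt7a had 4779, 5343 and 5946 in SRC-2d/d uteri, against 3515, 2085 and 1860 in SRC-2f/f uteri. It rose 2.15-fold (1.16, SE 0.26, adjusted p = 0.0115), with SRC-2f/f mouse 1 nearest to the mutants. The call was lost without SRC-2f/f mouse 2 (1.06, adjusted p = 0.0886) and without SRC-2f/f mouse 3 (0.98, adjusted p = 0.0974).

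Wnt6 and Wnt10a, which lie next to each other on chromosome 1, both fell. Wnt6, a ligand of the beta-catenin branch in several tissues, had 125, 969 and 179 normalized counts in SRC-2d/d uteri, against 1663, 5684 and 7155 in SRC-2f/f uteri. Its mean was 424 ± 473 in SRC-2d/d uteri and 4834 ± 2843 in SRC-2f/f uteri (SD, n = 3 each), a log2 difference of -3.86 (SE 0.65, adjusted p = 0.00174). SRC-2d/d mouse 2 stood highest among the mutants but below SRC-2f/f mouse 1, the lowest control. Wnt10a, a ligand best known from skin and teeth, was scarce, with 2.27, 8.32 and 0.827 in SRC-2d/d uteri, against 19.3, 143 and 124 in SRC-2f/f uteri (-4.23, SE 0.90, adjusted p = 0.0085). The SRC-2d/d mean was 0.0878 of the SRC-2f/f mean for Wnt6 and 0.0398 for Wnt10a, and 0.0314 and 0.0162 without SRC-2d/d mouse 2. The call of Wnt10a was lost without SRC-2f/f mice 2 and 3 (-3.72, adjusted p = 0.0764, and -3.83, adjusted p = 0.0938). In the RefSeq gene order the other 3 pairs of adjacent ligand genes, Wnt3a with Wnt9a, Wnt9b with Wnt3 and Wnt10b with Wnt1, held no called gene. Of these genes all but Wnt9a did not pass 68.6 normalized counts in any library, so their missing calls say little.

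Wnt2, a ligand of mesenchyme and endothelium, also fell. It had 35.2, 71.8 and 4.96 normalized counts in SRC-2d/d uteri, against 201, 274 and 229 in SRC-2f/f uteri (-3.22, SE 0.74, adjusted p = 0.0136). The groups did not overlap, but the mutants varied widely, and without SRC-2d/d mouse 2 the SRC-2d/d mean was 0.0856 rather than 0.159 of the SRC-2f/f mean. The call was lost without SRC-2f/f mice 1, 2 and 3 in turn (-3.33, -3.11 and -3.23, with adjusted p = 0.0677, 0.0835 and 0.105).

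Wnt5a, the main non-canonical ligand of the stroma, had the highest mean normalized count of the ligands in both genotypes but was not called. In SRC-2f/f uteri its mean was 33262, close to the 31134 of Wnt7b. It had 46560, 59938 and 56712 normalized counts in SRC-2d/d uteri, against 25662, 31222 and 42904 in SRC-2f/f uteri (0.73, SE 0.24, adjusted p = 0.0719). All 3 SRC-2d/d mice lay above the SRC-2f/f mice, and 4 of the 20 alternatives called it, at adjusted p = 0.023 to 0.036. Its adjusted p over all alternatives reached 0.273. In GENCODE M21, Gm2670 on the opposite strand shares 358 exon bases with Wnt5a and averaged 1218 normalized counts, and since the strand setting of the counting is not given, reads in that stretch cannot be told apart. The same holds for 4 called genes that share exon bases with a gene on the other strand: Wnt7b (324 bases with AU022754, which averaged 88.2), Sfrp2 (347 with Gm26771, 142), Fzd5 (1233 with Gm38058, 7.49) and Lef1 (1208 with Gm43352, not analysed here). Wnt16, a ligand known from bone, also had groups that did not overlap, with 4157, 5062 and 4642 in SRC-2d/d uteri, against 6076, 6277 and 5865 in SRC-2f/f uteri (-0.40, SE 0.20, adjusted p = 0.272).

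Wnt4, the decidual ligand, did not pass the test. It had 4173, 1465 and 4805 normalized counts in SRC-2d/d uteri, against 3467, 7058 and 10267 in SRC-2f/f uteri (-1.03, SE 0.43, adjusted p = 0.167). SRC-2f/f mouse 1 lay within the range of the mutants. Wnt11, a ligand of cell movement and polarity, averaged 5612 ± 2278 in SRC-2d/d uteri and 7741 ± 909 in SRC-2f/f uteri (SD, n = 3 each; -0.53, adjusted p = 0.264). Wnt5b, the closest relative of Wnt5a, averaged 1094 ± 407 in SRC-2d/d uteri and 2001 ± 478 in SRC-2f/f uteri (-0.91, adjusted p = 0.0826). Both were called lower without SRC-2d/d mouse 2 (-0.84, adjusted p = 0.0263 for Wnt11, and -1.18, adjusted p = 0.015 for Wnt5b). Wnt9a averaged 562 ± 148 in SRC-2d/d uteri and 863 ± 222 in SRC-2f/f uteri (adjusted p = 0.264). Wnt2b stood at 1586 ± 317 in SRC-2d/d uteri and 1611 ± 453 in SRC-2f/f uteri, with adjusted p = 0.995. The other 7 ligands, Wnt1, Wnt3, Wnt3a, Wnt8a, Wnt8b, Wnt9b and Wnt10b, did not pass 68.6 normalized counts in any library and were not called. Wnt3a had 5 reads in SRC-2d/d mouse 1 and no read in any other library.

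Per kilobase of exon, the leading ligand changed between the genotypes, whereas by mean normalized count, undivided by length, Wnt5a led in both. Lengths are unions of GENCODE M21 exons, and a level per kilobase is the normalized count divided by that length. In SRC-2d/d uteri Wnt5a led with a level of 6950 per kilobase, followed by Wnt7a with 1690, Wnt11 with 1360, Wnt16 with 1060 and Wnt7b with 968. In SRC-2f/f uteri Wnt7b led with 6360, followed by Wnt5a with 4250, Wnt6 with 2210, Wnt11 with 1870 and Wnt4 with 1650. The shares, ratios and order of the levels within a library do not depend on the scaling between libraries, whereas the levels themselves do. Wnt5a made up 46.3%, 49.7% and 52.3% of the summed ligand level in SRC-2d/d uteri, against 19.2%, 19.1% and 24.6% in SRC-2f/f uteri. Wnt7b made up 8.72%, 6.27% and 5.89% in SRC-2d/d uteri, against 39.2%, 32.1% and 25.5% in SRC-2f/f uteri. In SRC-2f/f mouse 3 its lead was narrow, with a ratio of Wnt5a to Wnt7b per length of 0.968. The share of Wnt7a was 12.1% ± 1.33 in SRC-2d/d uteri and 4.09% ± 2.10 in SRC-2f/f uteri (SD, n = 3 each). Wnt6 made up 0.443%, 2.87% and 0.588% in SRC-2d/d uteri, against 4.45%, 12.4% and 14.7% in SRC-2f/f uteri. The groups did not overlap for any of these 4 shares. The ratio of Wnt7b to Wnt7a per length was 0.745, 0.574 and 0.436 in SRC-2d/d uteri, against 6.04, 10.2 and 9.67 in SRC-2f/f uteri. With these lengths Wnt7a exceeded Wnt7b in each SRC-2d/d mouse and Wnt7b exceeded Wnt7a in each SRC-2f/f mouse. With the length of the longest transcript the order turned in SRC-2d/d mouse 1, where Wnt7b made up 10.9% and Wnt7a 10.2% of the ligand level. The summed ligand level per kilobase was 14000 ± 1280 in SRC-2d/d uteri and 20100 ± 2710 in SRC-2f/f uteri.

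**Figure D3:**
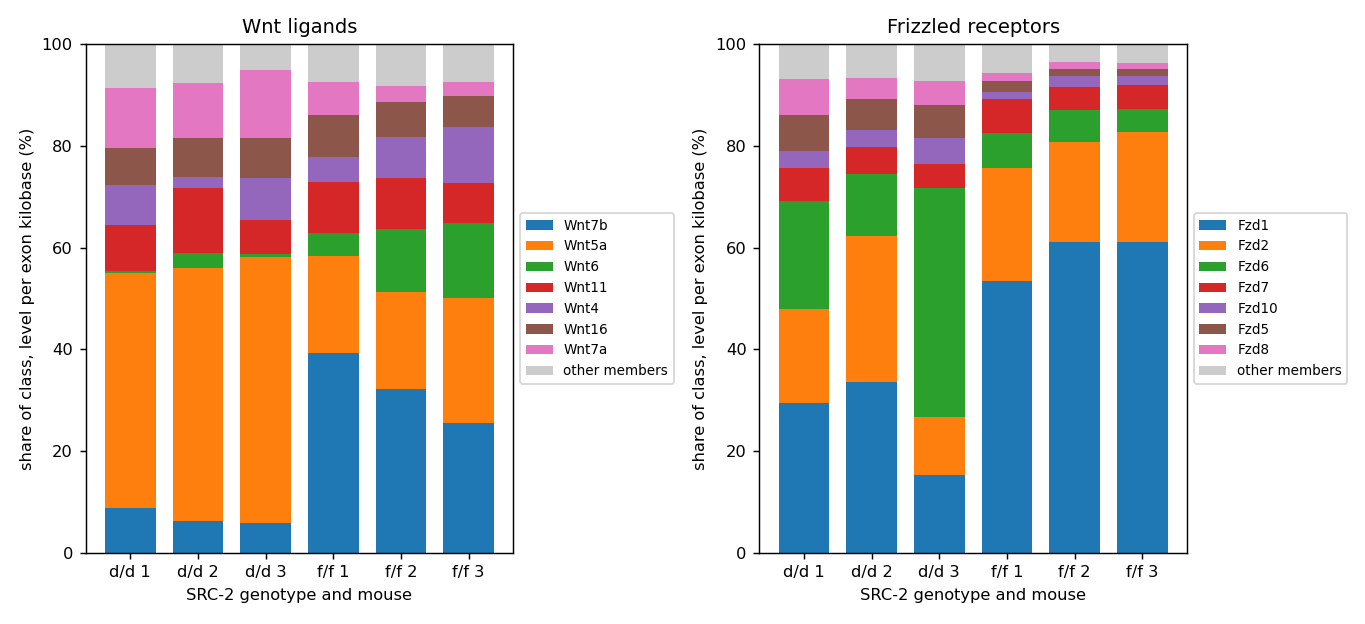
Share (%, vertical axis) of each gene in the summed level per exon kilobase of the 19 Wnt ligands (left) and of the 10 frizzled receptors (right), in each library, SRC-2d/d mice left of SRC-2f/f mice; genes under 5% in every library are pooled as other members. Wnt5a is the largest ligand block in all 3 SRC-2d/d mice and Wnt7b in all 3 SRC-2f/f mice, while Fzd1 shrinks to 15.3% to 33.6% in SRC-2d/d mice, against 53.5% to 61.0% in SRC-2f/f mice.

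Of the frizzled receptors, Fzd1, Fzd2, Fzd7 and Fzd9 fell. Fzd1, the most abundant receptor in SRC-2f/f uteri, had 12955, 20101 and 8918 normalized counts in SRC-2d/d uteri, against 44300, 67815 and 88408 in SRC-2f/f uteri. It was left at 20.9% of the SRC-2f/f mean (-2.28, SE 0.31, adjusted p = 0.000335), the groups being far apart. Fzd2, its close relative, had 7094, 14969 and 5794 in SRC-2d/d uteri, against 15988, 19136 and 27511 in SRC-2f/f uteri (-1.26, SE 0.32, adjusted p = 0.024). SRC-2d/d mouse 2 lay just below the lowest SRC-2f/f mouse, and the call of Fzd2 did not survive the removal of any single library except SRC-2d/d mouse 2, at adjusted p = 0.0574 to 0.185. Fzd7, the third receptor of this subfamily, had 3052, 3402 and 3011 in SRC-2d/d uteri, against 5869, 5447 and 7462 in SRC-2f/f uteri (-0.98, SE 0.21, adjusted p = 0.0105). Its mutants lay close together, and the call was lost without SRC-2f/f mouse 3 (-0.84, adjusted p = 0.0789). Fzd9 was scarce, with 17.0, 19.8 and 10.8 in SRC-2d/d uteri, against 73.8, 82.3 and 106 in SRC-2f/f uteri (-2.41, SE 0.57, adjusted p = 0.0153). Its groups were well apart, but the call was lost without SRC-2f/f mouse 2 (-2.45, adjusted p = 0.0829) and mouse 3 (-2.27, adjusted p = 0.0921).

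Fzd5 and Fzd8, a pair of closely related receptors that are used in the beta-catenin branch, both rose. Fzd5 had 5126, 5928 and 6155 normalized counts in SRC-2d/d uteri, against 2830, 2568 and 3308 in SRC-2f/f uteri. All mutants were above all controls, at 1.98-fold (0.99, SE 0.21, adjusted p = 0.00953), and the call was lost without SRC-2f/f mouse 2 (0.90, adjusted p = 0.0867). Fzd8 had 4358, 3473 and 3853 in SRC-2d/d uteri, against 1841, 2105 and 2527 in SRC-2f/f uteri. It rose 1.80-fold (0.86, SE 0.22, adjusted p = 0.0275), and the groups did not overlap. The call of Fzd8 did not survive the removal of any single library except SRC-2d/d mouse 2, at adjusted p = 0.0545 to 0.14.

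Fzd6, a receptor of the planar polarity branch, had 10666, 8381 and 30072 normalized counts in SRC-2d/d uteri, against 6614, 8161 and 7494 in SRC-2f/f uteri. All 3 mutants lay above the controls, but SRC-2d/d mouse 3 stood at several times the others, and Fzd6 was not called (0.91, SE 0.36, adjusted p = 0.147). It was called without SRC-2d/d mouse 2 (1.28, adjusted p = 0.0164) and by DESeq2 (1.14, adjusted p = 0.036). Fzd4, a receptor of endothelial cells, had 2982, 3965 and 4162 in SRC-2d/d uteri, against 5290, 4749 and 6196 in SRC-2f/f uteri. Its groups did not overlap either, but it was not called (-0.55, SE 0.22, adjusted p = 0.15). Fzd3, a receptor of axon guidance, averaged 4524 ± 850 in SRC-2d/d uteri and 3451 ± 503 in SRC-2f/f uteri (SD, n = 3 each; adjusted p = 0.365). Fzd10 averaged 1706 ± 594 in SRC-2d/d uteri and 1575 ± 535 in SRC-2f/f uteri (adjusted p = 0.866).

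Among the receptors per kilobase of exon, Fzd1 made up 29.5%, 33.6% and 15.3% of the summed level in SRC-2d/d uteri, against 53.5%, 61.0% and 61.0% in SRC-2f/f uteri. Fzd6 made up 21.1%, 12.2% and 44.9% in SRC-2d/d uteri, against 6.96%, 6.39% and 4.5% in SRC-2f/f uteri, and in SRC-2d/d mouse 3 it was the leading receptor. The share of Fzd5 was 6.50% ± 0.536 in SRC-2d/d uteri and 1.62% ± 0.394 in SRC-2f/f uteri (SD, n = 3 each). The share of Fzd2 was 19.5% ± 8.69 in SRC-2d/d uteri and 21.2% ± 1.30 in SRC-2f/f uteri, and those values overlapped. The summed receptor level per kilobase was 10500, 14300 and 13900 in SRC-2d/d uteri, against 19700, 26500 and 34600 in SRC-2f/f uteri. The groups did not overlap in that total or in the shares of Fzd1, Fzd5 and Fzd6.

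The secreted frizzled-related proteins bind Wnt ligands outside the cell, and all 4 of the genes fell. Sfrp5 had 27.3, 62.4 and 43.8 normalized counts in SRC-2d/d uteri, against 1625, 10357 and 12576 in SRC-2f/f uteri. It had the largest difference of the 48 genes (-7.11, SE 0.61, adjusted p = 5.84e-06), with 0.544% of the SRC-2f/f mean left. SRC-2f/f mouse 1 stood well below the other 2 controls and was still far above every mutant. Sfrp2 had 3908, 8430 and 2908 in SRC-2d/d uteri, against 20888, 36318 and 49273 in SRC-2f/f uteri (-2.87, SE 0.37, adjusted p = 0.000208). Sfrp1 had 979, 1026 and 1237 in SRC-2d/d uteri, against 5415, 6471 and 7786 in SRC-2f/f uteri (-2.59, SE 0.23, adjusted p = 8.22e-06). Sfrp4, a gene of stromal tissue, had 6212, 7751 and 5063 in SRC-2d/d uteri, against 23904, 23764 and 32564 in SRC-2f/f uteri (-2.08, SE 0.23, adjusted p = 5.63e-05). In each of these genes the groups were separated by a wide gap, and no removal of a library ended a call.

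Wif1, which binds Wnt ligands through its WIF domain, was scarce throughout. No read was found in the SRC-2d/d uteri, against 20.2, 19.2 and 27.5 normalized counts in SRC-2f/f uteri. Against a floor of 3 reads per library it was at least 7.43-fold lower in SRC-2d/d uteri, and it was called (adjusted p = 0.00209). Per kilobase of exon the summed level of the 5 genes was 3540, 6040 and 2870 in SRC-2d/d uteri, against 17500, 29500 and 39100 in SRC-2f/f uteri. Sfrp2 held the largest part in both, with 54.4% ± 9.29 in SRC-2d/d uteri and 57.0% ± 1.60 in SRC-2f/f uteri (SD, n = 3 each). The share of Sfrp5 was 0.405%, 0.544% and 0.804% in SRC-2d/d uteri, against 4.88%, 18.5% and 16.9% in SRC-2f/f uteri. As background from the mouse, Sfrp2 and Sfrp4 are stromal genes. Of the 9 stromal markers given above 4 fell and 5 were not called, and their sums overlapped between the genotypes. The part of stromal cells in the fall of these genes was not tested.

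Of the dickkopfs, Dkk3 fell. Dkk3, a divergent member of the family whose action on the co-receptors is debated, had 6397, 11754 and 5482 normalized counts in SRC-2d/d uteri, against 23913, 23823 and 34785 in SRC-2f/f uteri. The groups did not overlap, and 28.6% of the SRC-2f/f mean was left (-1.86, SE 0.28, adjusted p = 0.000757). Dkk2, a modulator of the co-receptors, had 1016, 2227 and 2183 in SRC-2d/d uteri, against 2606, 2758 and 3166 in SRC-2f/f uteri. All mutants were lower than all controls, but Dkk2 was not called (-0.73, SE 0.30, adjusted p = 0.15). Dkk1, the classic inhibitor of the co-receptors, had 1 read in all SRC-2d/d uteri together, against 14 reads in all SRC-2f/f uteri, and was not called (adjusted p = 0.18). The ratio of SRC-2f/f over SRC-2d/d from these reads was 14.0, with a 95% counting interval of 2.13 to 591. Dkk4 averaged 9.61 ± 8.41 in SRC-2d/d uteri and 5.37 ± 3.02 in SRC-2f/f uteri (adjusted p = 0.983).

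Rnf43, a ligase that removes frizzled receptors from the cell surface and is itself a target gene of beta-catenin, rose. It had 6441, 3720 and 6118 normalized counts in SRC-2d/d uteri, against 1425, 1067 and 1631 in SRC-2f/f uteri. The lowest mutant lay at more than any control, and the rise was 3.95-fold (1.96, SE 0.27, adjusted p = 0.000338) and held in all 20 alternatives. Its paralog Znrf3, with the same activity, averaged 5079 ± 466 in SRC-2d/d uteri and 6111 ± 877 in SRC-2f/f uteri and was not called (SD, n = 3 each; -0.26, adjusted p = 0.527). Rspo1 averaged 2523 ± 573 in SRC-2d/d uteri and 1761 ± 458 in SRC-2f/f uteri (adjusted p = 0.259), and Rspo3 averaged 1853 ± 735 in SRC-2d/d uteri and 1358 ± 176 in SRC-2f/f uteri (adjusted p = 0.485). These 2 R-spondins, which bind Lgr receptors, carried nearly all R-spondin reads. Rspo2 and Rspo4 did not pass 62.1 in any library and were not called, but Rspo4 was without SRC-2d/d mouse 2 (-3.92, adjusted p = 0.0134).

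Of the 4 feedback and nuclear genes of the beta-catenin branch, Lef1 and Nkd1 fell, and Axin2 and Tcf7 were not called. Lef1, a DNA-binding partner of beta-catenin, had 962, 2075 and 400 normalized counts in SRC-2d/d uteri, against 4545, 5327 and 7922 in SRC-2f/f uteri. It fell (-2.63, SE 0.45, adjusted p = 0.00182), and its mean was 0.193 of the SRC-2f/f mean, and 0.115 without SRC-2d/d mouse 2. Nkd1, a feedback inhibitor that binds dishevelled, had 2516, 3888 and 2303 in SRC-2d/d uteri, against 5129, 7920 and 9836 in SRC-2f/f uteri (-1.38, SE 0.28, adjusted p = 0.00618). Its groups did not overlap, but the call was lost without SRC-2f/f mouse 2 (-1.33, adjusted p = 0.0505) and mouse 3 (-1.17, adjusted p = 0.0742). Axin2, the most widely used readout of beta-catenin activity, was not called, with 4085, 6122 and 3570 in SRC-2d/d uteri, against 6054, 7318 and 10128 in SRC-2f/f uteri (-0.78, SE 0.26, adjusted p = 0.0817). SRC-2d/d mouse 2 reached the lowest control, and without it Axin2 was called (-1.00, adjusted p = 0.0154). It was also called with libraries scaled to equal totals (-0.83, adjusted p = 0.0497), and its adjusted p over all alternatives was at most 0.342. Tcf7, another partner of beta-catenin, had 2753, 3236 and 1904 in SRC-2d/d uteri, against 3403, 4146 and 5764 in SRC-2f/f uteri. Those groups did not overlap, and Tcf7 was called only without SRC-2d/d mouse 2 (-0.92, adjusted p = 0.0368; -0.75, adjusted p = 0.0978 with all mice).

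**Figure D4:**
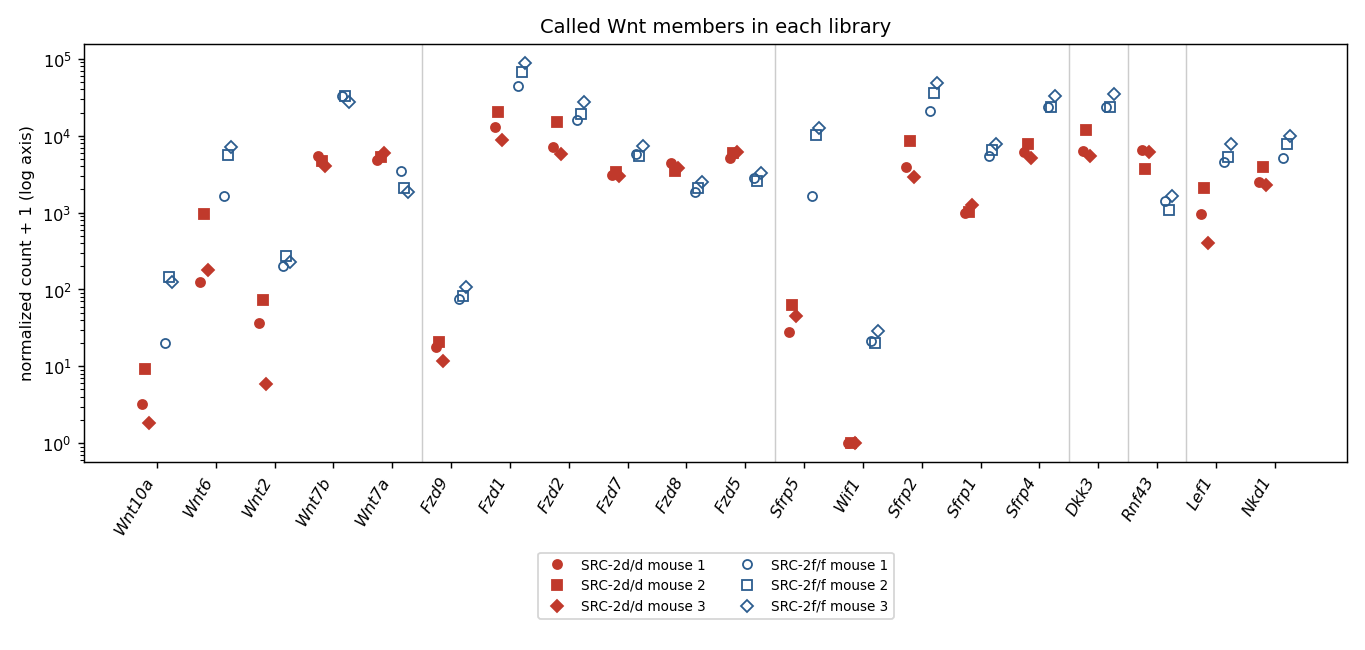
Normalized count plus 1 (vertical log axis) of the 20 called genes in each library, grouped by class, with SRC-2d/d mice as filled red symbols left of SRC-2f/f mice as open blue symbols. SRC-2d/d mouse 2 (square) is the highest red symbol for 13 of the 16 genes that fell, and SRC-2f/f mouse 3 (diamond) the highest blue one for 13 of them. Of all 1476 genes called lower, the same held for 77.2% and 67.5%.

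Single mice had a fixed place in many of these genes. SRC-2d/d mouse 2 had the highest mutant value for 13 of the 16 genes that fell, and SRC-2d/d mouse 3 the lowest for 12. SRC-2f/f mouse 3 was the highest control for 13 of the 16 and SRC-2f/f mouse 1 the lowest for 11. The same order held for many genes outside the group. Of all 1476 genes called lower, SRC-2d/d mouse 2 was the highest mutant for 77.2% and SRC-2d/d mouse 3 the lowest for 53.0%. SRC-2f/f mouse 3 was the highest control for 67.5% of them and SRC-2f/f mouse 1 the lowest for 71.6%. SRC-2d/d mouse 2 was also the highest mutant and SRC-2f/f mouse 3 the highest control in the stromal, endothelial and myometrial marker sums. In the luminal epithelial sum the same mice were lowest in their groups, at 389881 and 94675. Stromal sums were 949110, 1702580 and 886098 in SRC-2d/d mice 1 to 3, against 1724630, 1612190 and 2236460 in SRC-2f/f mice 1 to 3. Endothelial sums were 33507, 68689 and 35090 in SRC-2d/d mice 1 to 3, against 85144, 93701 and 140153 in SRC-2f/f mice 1 to 3. The part of these markers in the spread of the Wnt genes was not tested.

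A list of 64 further Wnt pathway genes held fewer calls than the 48 genes. Of these 64, 10 (15.6%) fell and 6 (9.38%) rose, with a median log2 difference of -0.22. Among tested genes averaging 100 or more normalized counts, as 61 of the 64 did, 6.79% fell and 8.33% rose, so the share that rose was near that of all genes. Of the 16 calls, 10 were among 26 extracellular and membrane genes (7 lower, 3 higher), 4 among 7 planar polarity genes, 1 among 10 nuclear genes (Bcl9) and 1 among 5 target genes (Myc). Notum, which was called lower, and Lgr5, which was not called, are target genes too but were counted as extracellular and membrane genes. In the cytoplasmic route, which holds dishevelled, axin, Apc, Gsk3 and beta-catenin, limma called 0 of 16 genes, with 4 at an unadjusted p under 0.05, and edgeR and DESeq2 called 0 as well. Ctnnb1, which encodes beta-catenin, averaged 123338 in SRC-2d/d uteri and 103428 in SRC-2f/f uteri (log2 difference 0.27, adjusted p = 0.58). The log2 differences of these 16 genes ran from -0.88 to 0.66. The number of lower genes was 5 without SRC-2f/f mouse 2, 3 without SRC-2f/f mouse 3 and 17 without SRC-2d/d mouse 2.

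Of the 26 extracellular and membrane genes on that list 7 fell, 3 rose and 16 were not called, and several of the called ones encode inhibitors. Frzb, a further frizzled-related protein, had 1269, 2458 and 1394 normalized counts in SRC-2d/d uteri, against 4156, 4333 and 7130 in SRC-2f/f uteri (-1.63, SE 0.29, adjusted p = 0.00299). Draxin, a secreted Wnt antagonist and axon guidance protein, had 136, 440 and 111 in SRC-2d/d uteri, against 982, 2171 and 3557 in SRC-2f/f uteri (-3.38, SE 0.52, adjusted p = 0.000804). Notum, an enzyme that removes the lipid of Wnt ligands, had 203, 190 and 109 in SRC-2d/d uteri, against 320, 1124 and 1429 in SRC-2f/f uteri (-2.30, SE 0.49, adjusted p = 0.009). All 3 genes had groups that did not overlap. Apcdd1, a membrane-bound inhibitor, had 6475, 19972 and 5749 in SRC-2d/d uteri, against 28768, 44034 and 50918 in SRC-2f/f uteri (-2.15, SE 0.39, adjusted p = 0.00296). Sostdc1, which binds Lrp co-receptors and bone morphogenetic proteins, had 6.82, 21.8 and 0 in SRC-2d/d uteri, against 86.1, 197 and 156 in SRC-2f/f uteri (-4.63, SE 0.94, adjusted p = 0.0066). Dkkl1, a relative of the dickkopfs best known from testis, went the other way, with 615, 333 and 1598 in SRC-2d/d uteri, against 69.4, 93.0 and 147 in SRC-2f/f uteri (2.80, SE 0.51, adjusted p = 0.00311). It rose 8.23-fold, and 4.60-fold without SRC-2d/d mouse 3. Without SRC-2d/d mouse 2 the SRC-2d/d mean was 0.0552 rather than 0.102 of the SRC-2f/f mean for Draxin, 0.148 rather than 0.260 for Apcdd1 and 0.0233 rather than 0.0653 for Sostdc1, which stood at 0.0980 without SRC-2d/d mouse 3. The calls of Notum and Sostdc1 were lost without SRC-2f/f mice 2 and 3 (adjusted p = 0.0533 to 0.11), and that of Apcdd1 without SRC-2f/f mouse 3 (adjusted p = 0.0574).

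Among the receptors on this list, Ror1 fell and Lgr6 rose. Ror1, a receptor tyrosine kinase for Wnt5a, had 1122, 1516 and 1102 normalized counts in SRC-2d/d uteri, against 4887, 6743 and 9565 in SRC-2f/f uteri (-2.46, SE 0.27, adjusted p = 5.08e-05). Ror2, the related receptor, averaged 14246 in SRC-2d/d uteri and 8812 in SRC-2f/f uteri and was not called (0.69, adjusted p = 0.079). Its groups did not overlap, and it was called only without SRC-2d/d mouse 3 (adjusted p = 0.0423), with an adjusted p of up to 0.303 over all alternatives. Lgr6, an R-spondin receptor, had 4114, 4861 and 3828 in SRC-2d/d uteri, against 983, 531 and 954 in SRC-2f/f uteri (2.42, SE 0.27, adjusted p = 6.81e-05). Its groups were far apart, while Lgr5, a receptor of the same family that marks stem cells in several epithelia, averaged 1147 in SRC-2d/d uteri and 2552 in SRC-2f/f uteri (-1.26, adjusted p = 0.136). Bcl9, which ties beta-catenin to the activating Pygo proteins, had 45809, 28573 and 44126 in SRC-2d/d uteri, against 8838, 8892 and 11877 in SRC-2f/f uteri (1.98, SE 0.24, adjusted p = 0.000117).

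Of the 7 planar polarity genes 2 rose, 2 fell and 3 (Vangl1, Vangl2 and Celsr3) were not called. Celsr1 and Celsr2, atypical cadherins of the planar polarity complex in epithelia, rose. Celsr1 had 48343, 33352 and 39057 normalized counts in SRC-2d/d uteri, against 17677, 10363 and 12029 in SRC-2f/f uteri (1.61, SE 0.24, adjusted p = 0.000776). Celsr2 had 22908, 13561 and 21561 in SRC-2d/d uteri, against 3850, 3361 and 3097 in SRC-2f/f uteri (2.46, SE 0.24, adjusted p = 1.72e-05). Both stood above all controls in every mutant, beside the rise of the 9 epithelial markers. Prickle1, a cytoplasmic polarity protein, had 5933, 12012 and 4627 in SRC-2d/d uteri, against 15752, 18609 and 23053 in SRC-2f/f uteri (-1.45, SE 0.31, adjusted p = 0.00821), which was not called without SRC-2f/f mouse 3 (-1.31, adjusted p = 0.0936). The other 4 called genes, named after their values were seen, were Kremen2, a receptor of dickkopfs, which rose (2.44, adjusted p = 0.0106), and 3 genes that fell. These were the target gene Myc (-1.17, adjusted p = 0.0212), Prickle2 (-1.16, adjusted p = 0.0318) and the receptor Lrp4 (-0.91, adjusted p = 0.037). Kremen2 was not called without SRC-2f/f mouse 3 (1.89, adjusted p = 0.055), and Lrp4, Myc and Prickle2 kept their calls, among removals of a library, only when it was SRC-2d/d mouse 2. Prickle2 was also not called by edgeR with TMM scaling (-1.02, adjusted p = 0.0565) or with a pseudocount of 0.1 (-1.16, adjusted p = 0.0527), and Lrp4 not after quantile normalization (-0.84, adjusted p = 0.0589). Without that mouse the SRC-2d/d mean of Prickle2 was 0.328 rather than 0.494 of the SRC-2f/f mean.

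**Figure D5:**
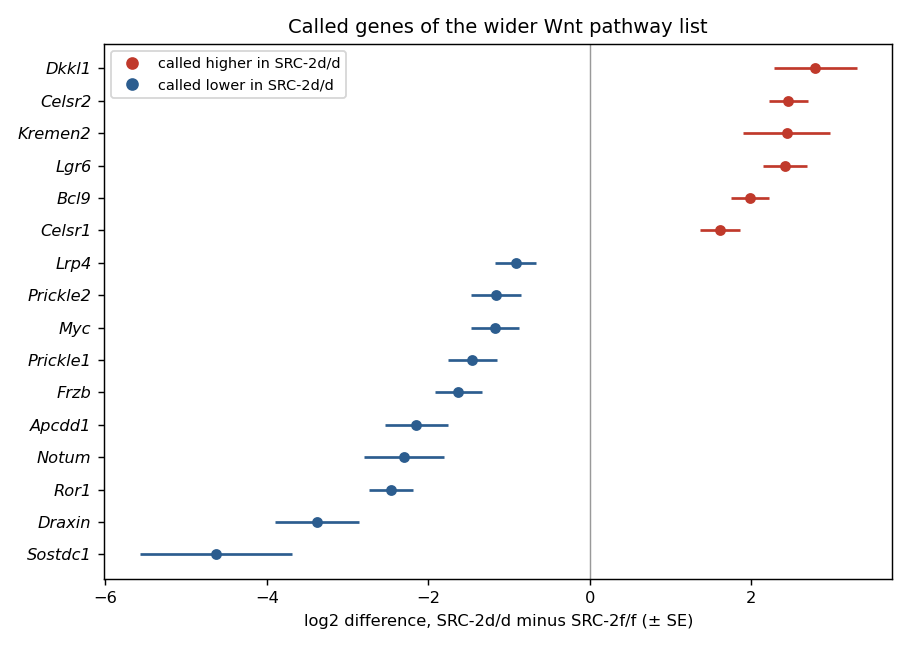
Log2 differences (SRC-2d/d minus SRC-2f/f, horizontal axis) of the 16 called genes among the 64 further Wnt pathway genes, with bars for the standard error. The 6 red points to the right were called higher, from Celsr1 at 1.61 to Dkkl1 at 2.80, and the 10 blue points to the left lower, from Lrp4 at -0.91 to Sostdc1 at -4.63.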

How the data were processed

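Gene reads of 6 uterine libraries were analysed. Per the submitters' processing notes the authors used HISAT2, HTSeq and DESeq, in unnamed versions. The kit was stranded and selects mRNA, per the labels' protocols. No source used here states the strand setting, the build or how multiply mapping reads were treated. The table is titled FPKM by the authors, but in each library 100% of the deposited values came out as whole reads once divided by their lowest non-zero value (tolerance 1e-06 of a read), so they are a signal of reads per size factor (0.88 to 1.21), uncorrected for gene length.

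limma (3.58.1, R 4.3.3; lmFit, eBayes with trend) was fitted to log2(normalized count + 1) for 36154 genes with a mean of at least 0.5, with genotype as the only term and calls at a Benjamini-Hochberg adjusted p under 0.05. Differences are SRC-2d/d minus SRC-2f/f, and on this scale they understate changes of low genes. Alternatives were pseudocounts, filters, scalings, moderation, a replicate block, each library left out, and, on the recovered reads, DESeq2 (1.42.0) and the quasi-likelihood test of edgeR (4.0.16). The procedure was tested on simulated counts with planted differences, drawn independently for each gene and library with the same spread setting for all genes. They held no shared order of mice, so that test does not measure false calls in these data. The 48 genes, the pathway list and the marker lists were chosen with earlier results of these data known. All called genes, and uncalled ones with a mean of at least 100 whose groups do not overlap, are given by library. Of the pathway list the 12 called genes with the smallest adjusted p are given by library, and other genes of that list were named after their values were seen.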

Additional observations from a re-analysis of the deposited data

How the results depend on the processing

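Over the 20 alternatives none of the 20 called genes changed direction. Rnf43, Sfrp1, Sfrp4, Sfrp5, Wif1 and Wnt7b were called in every alternative that tested them, and the other 14 lost the call in at least 1. With eBayes without trend the 4 higher and 16 lower calls among the 48 genes were 1 and 6, those of the further pathway list 3 and 1 (from 6 and 10), and Ncoa2 was not called (-0.91, adjusted p = 0.119). The calls ended there were those of Dkk3, Fzd1, Fzd2, Fzd5, Fzd7, Fzd8, Lef1, Nkd1, Sfrp2, Wnt2, Wnt6, Wnt7a and Wnt10a, at adjusted p = 0.052 to 0.219, and the cause was not tested. eBayes robust ended those of Lef1 (adjusted p = 0.0514), Wnt6 (0.117) and, on the pathway list, Apcdd1 (0.0715). Leaving out 1 library at a time gave 1 to 5 higher and 10 to 21 lower genes of the 48, 5 to 7 higher and 3 to 17 lower genes of the pathway list, and -0.95 to -0.85 for Ncoa2. With pseudocounts, filters, scalings, eBayes robust, edgeR and DESeq2 the counts among the 48 genes were 4 or 5 higher and 13 to 17 lower, the 13 resulting from a filter at a mean of 100 that removed 3 called genes. The labels tie same-numbered mice of both groups by the number only. The correlations of their deviations from the group means were 0.38, 0.01 and 0.03 for numbers 1 to 3. Not every library correlated best with its own number, as SRC-2d/d mouse 2 did so with SRC-2f/f mouse 3 (0.34). With 3 mice a group these values cannot exclude a pairing by number. With the replicate block the counts were 5 higher and 16 lower of the 48, the added gene being Wnt5a (0.73, adjusted p = 0.036). Per-length shares, recomputed with the longest transcript as an alternative chosen after the data were seen, gave 8.77% for Wnt7b, 8.76% for Wnt16 and 10.6% for Wnt7a in SRC-2d/d uteri, where Wnt7b is no longer below Wnt16, and Wnt7b exceeded Wnt7a in SRC-2d/d mouse 1. With 3 mice a group, precision rests on few animals, and genes under about 100 normalized counts rest on few reads.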
